A study of Mus musculus with 145 samples.

Results

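Fibroblast 1 is a cluster of cells that arose while mouse spermatogonial stem cells (SSCs) were cultured towards pluripotency. Its members were all cells with that name in the deposited annotation, and they numbered 182 of the 4464 cells sequenced. The 4 genes given as its markers were Col12a1, Col5a2, Ctgf and Col1a1. Collagen transcripts were present at a low level, but the data went against the word fibroblast. The cells carried germ cell transcripts, most of them within the range of SSCs. Their fibroblast transcripts lay below the level in Fibroblast 2, the other cluster of that kind. In the libraries of days 8 and 10 the 4 markers stood at 3.61% to 21.1% of that level. The deposited name is kept here as a name only.

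The SSCs came from male mice of 5.5 days postpartum, bred from C57BL/6 females carrying an Oct4-EGFP or EGFP transgene and DBA/2 males, and the cell labels give the strain as C57BL/6[female] X DBA[male]. The cells were plated on fibronectin with mouse embryonic fibroblast feeder cells, which mitomycin C had stopped from dividing, and were kept in SSC medium with epidermal growth factor, basic fibroblast growth factor, glial cell line-derived neurotrophic factor and ESGRO. All cells described below were of this original condition, whose treatment label is none, so that SSC1 to SSC4, Fibroblast 1 and Fibroblast 2 shared the same medium, feeder cells and parental strains and differed in cluster and, in part, in day and batch label. Colonies were picked and trypsinised, and single cells were chosen by mouth pipette and sequenced by a modified STRT-seq protocol that counts unique molecular identifiers (UMIs). The cells were named after clustering.

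Fibroblasts are connective tissue cells that secrete and remodel the extracellular matrix. Fibrillar collagens such as types I and III form the strands of that matrix, collagens V, VI and XII associate with the fibrils, and small proteoglycans such as decorin and biglycan regulate how the fibrils assemble. Spermatogonial stem cells are germ cells that sustain sperm production, and they are recognised by RNA-binding proteins of the germ line such as Dazl and Ddx4 and by the self-renewal factor Zbtb16.

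The members were spread very unevenly over the culture. Day 8 replicate 1 held 66 of them, day 10 replicate 1 held 30, day 14 replicate 2 held 57 and day 14 replicate 4 held 24. The remaining 5 cells lay in single libraries of days 12, 18 and 23 (1, 3 and 1 cells). Fibroblast 1 thus made up 75.9% of the cells of its day 8 library, 32.3% at day 10, and 59.4% and 25% in the 2 libraries of day 14. The day 8 library consisted of 66 Fibroblast 1, 20 Fibroblast 2 and 1 SSC1 cells, so that at day 8 the class and the library cannot be told apart. All 182 cells belonged to batch B1 of the labels. The 4 Fibroblast 1 sums described below also shared 1 value of a second batch label, which is written as a date, and 18 of the 36 SSC1-4 sums carried that date (11 of B1 and 7 of B2), so class and date label are partly confounded.

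For comparisons, UMIs were summed over the cells of a class within a library, and a sum was used where it held at least 5 cells. This gave 4 Fibroblast 1 sums of 177 cells and 36 sums of the cells named SSC1 to SSC4, together called SSC1-4 (2265 cells in all). In 3 libraries (day 10 replicate 1, day 14 replicates 2 and 4) both classes were present. Fibroblast 1 sums held 7501093 to 19814893 UMIs and SSC1-4 sums 433094 to 34168335. Levels are given in CPM, counts scaled to the total of a sum. Because the clusters were cut from these same transcriptomes, the differences below describe the class against the spread between libraries and are no independent test of it.

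Fibroblast 1 cells were deeply sequenced. Their median UMI count was 282934 at day 8, 290108 at day 10, and 343591 and 325928 at day 14, and their median number of detected genes ran from 8481 to 10018. SSC1-4 cells of the shared libraries had medians of 234378, 79281 and 281022 UMIs. The SSC1-4 cells of day 14 replicate 2 were shallow, with 16 of 34 cells under 50000 UMIs, and results that use them are read with that in mind. The median mitochondrial share of Fibroblast 1 was 0.952% at day 8. In the shared libraries it was 0.966%, 0.760% and 0.858%, against 1.05%, 1.62% and 0.920% in SSC1-4, lower in all 3, and the median number of detected genes was higher in all 3. The part of this difference in the results below was not tested. All 96 well barcodes were found in more than 1 library, so a barcode found in 2 libraries marks no shared cell, and no doublet caller was run on these plate-based data.

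The 4 markers lay low in Fibroblast 1 and above most SSC1-4 sums. Col12a1 (GRCm38 chr9:79598991-79718831, minus strand), a collagen that decorates type I fibrils, measured 4.57 CPM at day 8, 10.7 at day 10, and 10.4 and 32.3 at day 14. SSC1-4 sums ran from 0 to 13.8 CPM with a median of 0.780. The groups overlapped, since 3 of the 4 Fibroblast 1 sums lay within the SSC1-4 range and that of day 14 replicate 4 stood above it. The SSC1-4 maximum was that of day 16 replicate 1, a sum of 8 cells and 798484 UMIs. The next highest SSC1-4 sum was 8.97 CPM, and only the day 8 sum of Fibroblast 1 lay below that.

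Col5a2 (chr1:45374321-45503282, minus strand), a chain of type V collagen, which sets fibril diameter, measured 15.7, 13.2, 6.56 and 16.8 CPM in the Fibroblast 1 sums of day 8, day 10 and day 14 replicates 2 and 4. SSC1-4 sums ran from 0 to 3.91 CPM (median 0.557), and no Fibroblast 1 sum fell within that range.

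Ctgf (chr10:24595442-24598683, plus strand), a secreted matrix-associated protein and a known target of YAP, measured 10.3, 10.99, 6.71 and 18.1 CPM in the same order. SSC1-4 sums ran from 0 to 15.4 CPM (median 1.26), so that 3 Fibroblast 1 sums lay inside the SSC1-4 range. The SSC1-4 maximum was that of day 27 replicate 5, a sum of 10 cells. The next highest SSC1-4 sum was 5.34 CPM, below all Fibroblast 1 sums.

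Col1a1 (chr11:94936224-94953042, plus strand), the main chain of type I collagen, measured 74.0, 80.3, 85.7 and 112 CPM. Unlike the other markers it was plainly present in SSC1-4, at 2.37 to 62.1 CPM with a median of 32.1. The groups did not overlap, but the gap between them was small, and the highest SSC1-4 sum was that of day 10 replicate 1, a library that also held Fibroblast 1 cells.

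The comparison with SSC1-4 asked what set these cells apart from the germ cells they were cultured with. It was fitted with the quasi-likelihood test of edgeR on 17534 genes. A gene was called when its Benjamini-Hochberg adjusted p was below 0.05 and its log2 fold change was at least 0.72 in size. Of all genes tested, 42 (0.24%) were called higher in Fibroblast 1 and 2 (0.0114%) lower. Before adjustment, 387 and 645 genes had a p below 0.05. The balance of higher and lower calls depended on the tool, since DESeq2 called 22 genes higher and 42 lower, of which 18 were among those called by edgeR. The median log2 fold change of all genes was -0.04. The number of calls depended on which SSC1-4 libraries entered. Blocking on library within the 3 shared libraries left 7 genes higher and 0 lower, of which 3 were among the 42, SSC1-4 sums of the same date label left 5 and 0, and SSC1-4 of days 0 to 14 left 0 and 0, with 263 and 229 at an unadjusted p under 0.05. These settings also hold fewer sums, with 10 of SSC1-4 for days 0 to 14. Without the day 8 library 19 genes were called higher, and without that of day 10 also 19.

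Col5a2 (log2 fold change 3.38) and Col1a1 (1.33) were called. Col12a1 (2.84) and Ctgf (2.55) did not pass the adjusted threshold, although all 4 markers were higher in Fibroblast 1 than in SSC1-4 in each of the 3 shared libraries. In 1 of the 2 deposited parts of day 14 replicate 2, however, Ctgf was lower in Fibroblast 1 (8.43 CPM) than in SSC1-4 (10.9 CPM). Blocking on library within those 3, the log2 fold changes were 1.15 for Col12a1, 2.31 for Col5a2, 1.57 for Ctgf and 0.63 for Col1a1, and none of the 4 was called.

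The SSC1-4 sums of the shared libraries were set against the other 33. The SSC1-4 sums of day 10 replicate 1 and day 14 replicates 2 and 4 held Col12a1 at 5.73, 5.66 and 8.97 CPM, against the SSC1-4 median of 0.780. They held Col5a2 at 1.08, 3.69 and 2.68 CPM and Ctgf at 2.79, 4.92 and 3.38 CPM. All of these values lay above the SSC1-4 median of the gene, but not above all other sums. Among the other 33 the highest Col12a1 was 13.8 CPM, in day 16 replicate 1, the highest Col5a2 3.91 CPM, in day 23 replicate 3, and the highest Ctgf 15.4 CPM, in day 27 replicate 5, which held 6 Fibroblast 2 cells. Of the 33, 1 reached the lowest shared sum for Col12a1, 12 did so for Col5a2 and 4 for Ctgf. Whether RNA released from other cells contributed was not tested.

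**Figure D1:**
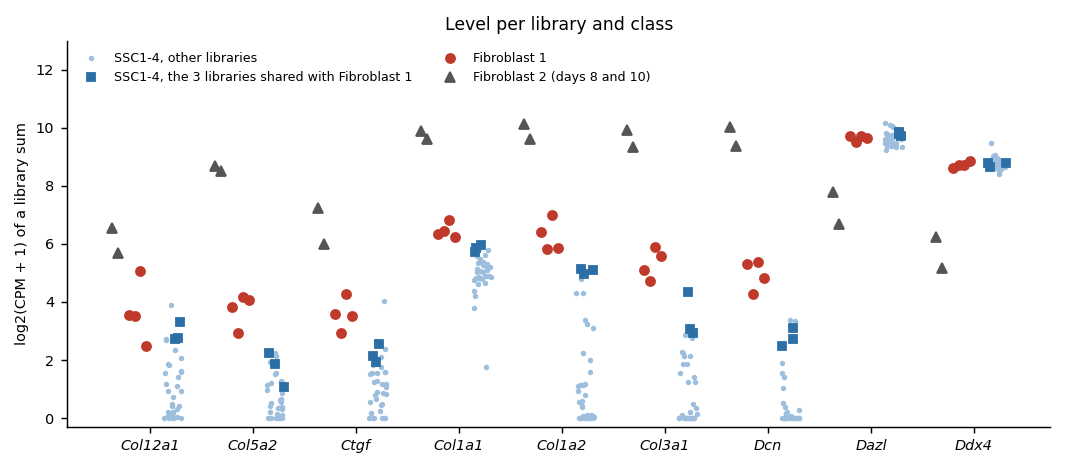
Levels of 9 genes in each library sum, as log2 of CPM plus 1. Circles are the 4 Fibroblast 1 sums, squares the SSC1-4 sums of the 3 shared libraries, dots the other SSC1-4 sums and triangles the Fibroblast 2 sums of days 8 and 10. All Fibroblast 1 sums lie above all SSC1-4 sums for Col5a2, Col1a1, Col1a2, Col3a1 and Dcn. For Col12a1 and Ctgf 3 of 4 lie inside the SSC1-4 range, which for each gene a single SSC1-4 sum extends upwards. For Dazl and Ddx4 the Fibroblast 1 sums lie beside SSC1-4. Both Fibroblast 2 sums lie above Fibroblast 1 for the matrix genes.

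The gene with the largest called difference among the more abundant ones was Mgp, which encodes matrix Gla protein, an inhibitor of calcification. It measured 69.3 CPM at day 8, 37.7 at day 10, 4.79 at day 14 replicate 2 and 39.2 at day 14 replicate 4, with a log2 fold change of 4.83. Day 14 replicate 2 was the low library and lay inside the SSC1-4 range, whose highest sum was 16.5 CPM.

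Col3a1, the chain of type III collagen, measured 46.5, 33.2, 25.3 and 59.1 CPM in the order day 8, day 10, day 14 replicates 2 and 4. SSC1-4 had a median of 0.125 CPM and a highest sum of 19.2 CPM, below every Fibroblast 1 sum, and the log2 fold change was 4.28. Dcn, which encodes decorin, measured 27.1, 38.3, 18.3 and 40.9 CPM against at most 9.49 in SSC1-4 (log2 fold change 4.14). Both genes ranked day 14 replicate 4 highest and day 14 replicate 2 lowest.

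The type VI collagen chains form beaded filaments around cells. Col6a1 measured 11.9, 11.1, 13.2 and 39.3 CPM, with SSC1-4 at 3.78 or less (log2 fold change 3.71). Col6a3 measured 14.7, 19.3, 11.6 and 34.7 CPM, with SSC1-4 at 8.86 or less (3.89). The third chain, Col6a2, given for completeness after its values were seen, measured 9.48, 10.2, 10.9 and 26.4 CPM. It was not called (1.65), overlapped SSC1-4, which reached 16.01 CPM, and was higher than SSC1-4 in 2 of the 3 shared libraries. For all 3 chains day 14 replicate 4 was the highest library.

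Serpinf1, a secreted serpin that inhibits the growth of vessels, measured 15.1, 7.15, 4.19 and 15.1 CPM (log2 fold change 3.56) and did not overlap SSC1-4, whose highest sum was 3.96 CPM. Bgn, which encodes biglycan, measured 38.1, 67.1, 11.8 and 50.8 CPM (3.87), but 1 SSC1-4 sum reached 41.3 CPM. Mmp3, a secreted protease that degrades matrix proteins, measured 38.2, 9.12, 30.6 and 30.7 CPM (4.39). Its day 10 sum lay within the SSC1-4 range, which reached 19.2 CPM.

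Lyz2, the lysozyme gene of macrophages and granulocytes, was the member of the leading genes that encodes no matrix or secreted stromal protein. It measured 22.6, 36.7, 1.16 and 4.27 CPM (log2 fold change 4.43), and was higher in the day 8 and day 10 libraries than in those of day 14. In SSC1-4 of the shared libraries Lyz2 measured 6.51, 0.492 and 0.466 CPM, and its highest SSC1-4 sum was 10.1 CPM, above both day 14 values of Fibroblast 1. In Fibroblast 2 it measured 54.4 and 68.6 CPM at days 8 and 10, so Fibroblast 1 held 41.6% and 53.5% of that level, a larger share than for any collagen described here.

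Blocking on library within the 3 shared libraries gave smaller folds for all 10 leading genes. The log2 fold changes were then 2.55 for Mgp, 2.41 for Lyz2, 1.33 for Mmp3, 1.87 for Col3a1, 2.37 for Dcn, 2.02 for Col6a3, 2.45 for Bgn, 2.33 for Col6a1, 1.86 for Serpinf1 and 2.31 for Col5a2. Of these, Dcn and Bgn were called.

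Single libraries also decided calls of the leading genes. Without day 8 replicate 1 the calls of Mgp, Lyz2, Mmp3, Col3a1, Dcn, Bgn and Serpinf1 were lost, without day 10 replicate 1 those of Lyz2, Dcn and Bgn, and without day 14 replicate 4 those of Mmp3, Col3a1, Dcn, Bgn and Serpinf1. Where a call was lost the log2 fold change was 3.33 (Serpinf1) to 4.37 (Mgp). It moved by over 1.5 times to 5.47 for Mgp without day 14 replicate 4 and to 5.03 for Mmp3 without day 14 replicate 2. Of the markers, Col1a1 lost its call (1.21) and Col12a1 went to 2.24 without day 14 replicate 4.

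Non-overlap was counted as well. In 12 genes (0.0684% of those tested) all 4 Fibroblast 1 sums lay above all 36 SSC1-4 sums, and in 0 genes did all 4 lie below. The 12 were Col1a1, Col1a2, Col3a1, Col5a2, Col6a1, Col6a3, Dcn, Serpinf1, the mesenchymal cadherin gene Cdh11, Clca3a1, and the RNA-binding protein genes Rbms3 and Rbm22. They are named because this count turned on them, after their values were seen. Of these, 6 were among the 14 fibrillar and associated collagens listed.

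Col1a2, the second chain of type I collagen, was one of these although the edgeR test did not call it (log2 fold change 3.73). With library as a block it was called, at 1.31. It measured 56.5, 83.1, 55.9 and 128 CPM in Fibroblast 1. SSC1-4 sums had a median of 0.618 CPM but reached 34.1 CPM, and the 3 shared libraries held 30.5, 33.5 and 34.1 CPM. The next SSC1-4 sums were 26.5 CPM in day 12 replicate 3 and 19.04 CPM in day 18 replicate 7, which held 1 and 3 Fibroblast 1 cells. In libraries with no cell named fibroblast the highest was 9.51 CPM.

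The 300 bases around the start of Col3a1 and Col1a2, the collagen genes among the 3 of 7 genes looked for that the sequence table held, are shown beside those of Dazl, a germ cell gene that was not called, because all 4 Fibroblast 1 sums lay above all SSC1-4 sums for both collagens. They come from RefSeq (GRCm38.p6) and run from 250 bases before to 50 bases after the start. Capitals mark matches, searched on both strands, to 4 motifs. The CCAAT box was searched as its name spells it. The TATA box was searched as TATAAA. The GC box was searched as GGGCGG. The TEAD motif was searched as GGAATG. The windows are Col3a1 at chr1:45311288-45311587 (plus strand), Col1a2 at chr6:4505368-4505667 (plus strand) and Dazl at chr17:50293571-50293870 (minus strand).
Col3a1: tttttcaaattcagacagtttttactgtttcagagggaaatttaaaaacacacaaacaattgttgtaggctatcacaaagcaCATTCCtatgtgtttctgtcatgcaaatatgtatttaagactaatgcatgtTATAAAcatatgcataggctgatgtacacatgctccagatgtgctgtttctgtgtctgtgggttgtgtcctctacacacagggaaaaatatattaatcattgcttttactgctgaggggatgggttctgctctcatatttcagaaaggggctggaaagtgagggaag
Col1a2: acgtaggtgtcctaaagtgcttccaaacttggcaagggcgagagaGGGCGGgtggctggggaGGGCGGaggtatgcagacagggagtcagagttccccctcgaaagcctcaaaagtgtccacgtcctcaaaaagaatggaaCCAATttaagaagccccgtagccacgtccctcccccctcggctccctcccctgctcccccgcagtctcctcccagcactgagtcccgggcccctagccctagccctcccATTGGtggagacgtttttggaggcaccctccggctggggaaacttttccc
Dazl: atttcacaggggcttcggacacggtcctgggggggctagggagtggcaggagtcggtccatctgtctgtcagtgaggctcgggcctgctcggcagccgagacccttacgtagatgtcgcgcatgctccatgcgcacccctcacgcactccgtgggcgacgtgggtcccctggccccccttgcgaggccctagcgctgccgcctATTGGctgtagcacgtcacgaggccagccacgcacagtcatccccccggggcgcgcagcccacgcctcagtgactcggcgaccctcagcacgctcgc
In Col3a1 the TATA letters began at base 134 of the window and the TEAD letters, on the opposite strand, at base 83. In Col1a2 GC boxes began at bases 46 and 63, CCAAT at base 142 and its reverse at base 251. In Dazl the reverse of CCAAT began at base 204. Of all 32851 promoters of the table, 37.4% held a CCAAT box, 13.6% a TATA box, 35.7% a GC box and 14.7% the TEAD letters, so each match is common and is given as a description of the letters.

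Gene lists placed these genes in groups. Of 14 fibrillar and associated collagens tested, 5 were called higher and 0 lower, where 0.24% of all genes were called higher, and their median log2 fold change was 1.49 against -0.04 for all genes. The called members were Col3a1, Col6a3, Col6a1, Col5a2 and Col1a1, none of which was called with library as a block, where the median of the list was 1.21. Summed over the list, Fibroblast 1 held 299, 359, 270 and 492 CPM, SSC1-4 had a median of 85.0 and a highest sum of 185 CPM, and no Fibroblast 1 sum overlapped that range.

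Of 19 matrix glycoproteins and proteoglycans, 4 were called higher (Dcn, Bgn, Fbln2 and Postn) and 0 lower, with a median of 1.97. With library as a block Dcn and Bgn were called, and Fbln2 (1.71) and Postn (1.0) were not. Without day 14 replicate 4 neither was called, and they fell to 2.57 and 1.30. Postn was also not called without day 8 replicate 1 (2.19) or after thinning (1.58). Fbln2, a fibulin of elastic fibres, measured 8.87, 22.98, 7.22 and 52.9 CPM (log2 fold change 3.21). Postn, which encodes periostin, measured 6.41, 4.40, 13.1 and 27.9 CPM (1.97) and overlapped SSC1-4, which reached 10.8 CPM. The most abundant member, Fbln1, had a log2 fold change of -0.26 and was high in SSC1-4 itself (median 157 CPM).

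Genes of the machinery that makes and modifies collagen showed no such shift. Of 18 collagen processing genes 1 was called higher, Pcolce (log2 fold change 1.92), which enhances cleavage of the procollagen ends, and the median was 0.00. P4hb, the most abundant, a subunit of prolyl hydroxylase, had -0.26. Pcolce was not called with library as a block (1.98), without day 8 replicate 1 (1.45) or without day 10 replicate 1 (1.91). The 14 basement membrane genes gave 0 calls and a median of 0.14 (0.00 with the block), and the 15 integrins and matrix receptors 0 calls and -0.03 (0.30 with the block). The 15 matrix proteases and inhibitors gave 1 call (Mmp3) and 0.19, which rose to 0.56 with the block.

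Signalling and contractile lists held 1 called gene. The 15 genes of the YAP and TEAD response, which includes Ctgf, gave 0 calls with a median of 0.25, and the 14 genes of the TGF-beta response gave 0 calls with a median of 0.05. With library as a block the medians were 0.38 and 0.62, where that of all genes was 0.00, so both medians lay above it. Among 17 actin and contractile genes, Cald1, an actin-binding regulator of contraction, was the 1 called (2.90), with 23.9, 73.5, 7.97 and 30.5 CPM, and the median was 0.20. Cald1 was not called with library as a block (0.76) or without day 10 replicate 1 (2.27). Actb measured 964 to 1235 CPM in Fibroblast 1 and had a log2 fold change of -0.20.

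Of 12 mesenchymal regulators 2 were called, Cdh11 (3.47) and Vim (2.86), and the median was 0.29 (0.51 with the block). Vim encodes the intermediate filament protein vimentin and measured 42.0, 77.9, 13.9 and 52.9 CPM. Its SSC1-4 sums reached 28.8 CPM, above the day 14 replicate 2 sum of Fibroblast 1. With library as a block Vim was called (1.91) and Cdh11 was not (1.6). Vim lost its call without day 10 replicate 1 (2.53), and Cdh11 without any 1 of day 8 replicate 1, day 10 replicate 1 and day 14 replicate 4 (3.37 to 3.63). The 16 epithelial junction genes gave 0 calls and a median of -0.10 (0.15 with the block), and Epcam, an adhesion molecule of spermatogonia, measured 244, 332, 306 and 325 CPM against an SSC1-4 median of 308.

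Most germ cell genes lay within the SSC1-4 range. Of 14 germ cell identity genes 0 were called in either direction, and the median was -0.14 (-0.17 with the block). Summed, they measured 3519, 3748 and 3681 CPM in Fibroblast 1 of the shared libraries against 3598, 4264 and 3948 CPM in SSC1-4, lower in all 3. In 12 of the 14 genes all 4 Fibroblast 1 sums lay within the SSC1-4 range. The exceptions were Mael and Mov10l1, which act in the silencing of transposons in the germ line and are named for this count after their values were seen. Mael measured 537, 376, 478 and 427 CPM against a lowest SSC1-4 sum of 445 CPM, and Mov10l1 340, 267, 368 and 320 CPM against 324 CPM, so for both genes the sums of day 10 replicate 1 and day 14 replicate 4 lay below SSC1-4. Within the 3 shared libraries 7 of the 14 were lower in Fibroblast 1 in all 3 and 2 were higher in all 3. Dazl, the most abundant, measured 797, 845, 728 and 836 CPM in Fibroblast 1, within the SSC1-4 range of 607 to 1136 CPM (median 789). Ddx4, a germ line RNA helicase outside the fixed naming rule, measured 465, 392, 416 and 419 CPM against an SSC1-4 median of 426. Lying within the SSC1-4 range with all 4 sums was not particular to germ cell genes. It held for 16 of 18 glycolysis genes and 15 of 16 epithelial junction genes, and for 5 of 14 collagens. The share over all genes tested was not counted.

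No stem cell or differentiation gene was called. The 15 SSC self-renewal genes gave 0 calls and a median of -0.13, and the 14 spermatogonial differentiation genes 0 calls and -0.11. With the block these were 0.04 and 0.05. Dmrt1, a transcription factor of spermatogonia, measured 207, 236, 325 and 212 CPM with an SSC1-4 median of 283. Zbtb16, one of the SSC markers fixed for naming cells, measured 140, 90.1, 114 and 101 CPM with an SSC1-4 median of 107. The 15 pluripotency genes gave 0 calls and a median of -0.10, and Sox2 measured 18.1 to 48.2 CPM within an SSC1-4 range of 0 to 90.1.

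The stress, growth and metabolism lists gave 0 calls each. Medians were 0.15 for ERK feedback, 0.09 for immediate early and heat shock genes, 0.06 for p53 targets, -0.20 for ER stress and 0.21 for proliferation. Cholesterol synthesis (-0.42, with 15 of 16 genes below 0) and glycolysis (-0.32, with 18 of 18 below 0) lay lowest among them. Blocking on library within the 3 shared libraries, these medians were 0.13 and -0.03, so the cholesterol median changed sign and the glycolysis median came close to that of all genes. For the other lists, in the order above, the blocked medians were 0.41, 0.09, 0.18, -0.15 and 0.04, so that of ERK feedback rose and that of proliferation fell. Of 13 ERK feedback genes, 9 were higher in Fibroblast 1 in all 3 shared libraries, where 15.7% of all genes tested were.

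**Figure D2:**
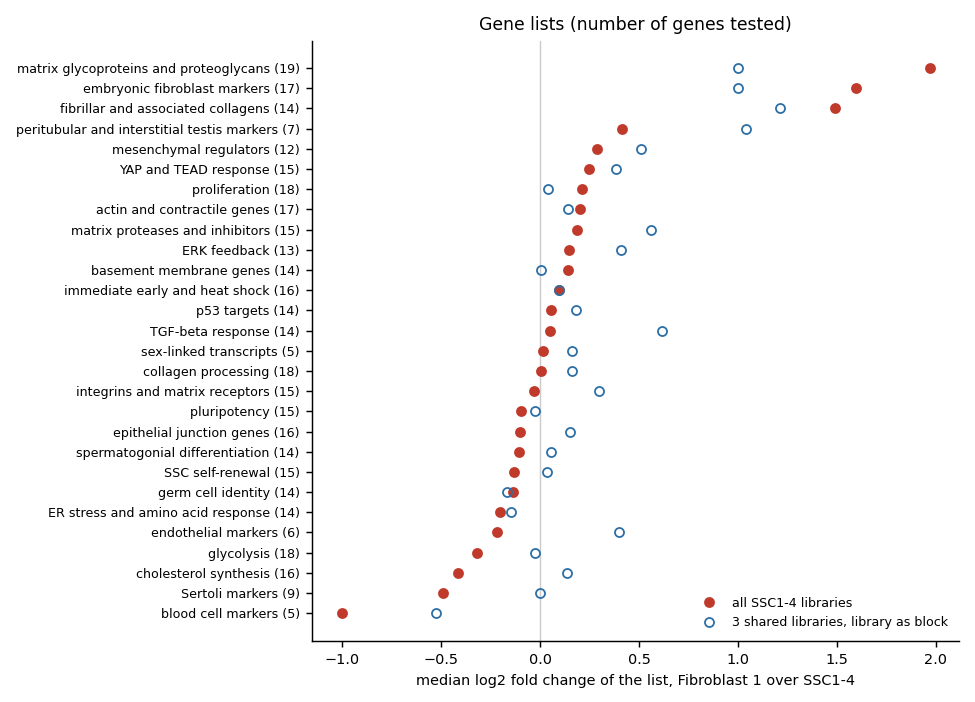
Median log2 fold change of each gene list, Fibroblast 1 over SSC1-4. Filled circles use all SSC1-4 libraries and open circles the 3 shared libraries, with library as a block. Number of genes tested in brackets. Matrix glycoproteins (1.97 and 1.0), embryonic fibroblast markers (1.6 and 1.0) and collagens (1.49 and 1.21) lie apart from the rest on both scales except for the peritubular list with the block (1.04).

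Marker lists of other cell types were read beside these results. Embryonic fibroblast markers, which share Col1a1, Col1a2 and Col3a1 with the collagens, gave 4 calls of 17 and a median of 1.6. Summed, they measured 352, 389, 322 and 529 CPM in Fibroblast 1 and 47.4 to 212 CPM in SSC1-4, so these markers moved with the collagens. The 7 peritubular and interstitial testis markers tested gave 0 calls and a median of 0.41, with sums of 24.5 to 46.9 CPM. In the 3 shared libraries they measured 46.9, 24.5 and 44.3 CPM in Fibroblast 1 against 20.6, 15.5 and 28.1 CPM in SSC1-4. The blocked median was 1.04, and 3 of the 7 genes were higher in all 3 shared libraries. Over all libraries the SSC1-4 sums ran from 0 to 52.4 CPM (median 21.3). Unlike for the collagens, that range held all 4 Fibroblast 1 sums. Of the Leydig genes listed, Insl3, Hsd3b1 and Cyp17a1 were at 0 in all 4 Fibroblast 1 sums. Lhcgr was at 0.0558 CPM at day 8 and 0 elsewhere, Cyp11a1 at 0 to 0.660 CPM, and Star at 1.06 to 5.72 CPM.

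The 9 Sertoli markers gave 0 calls (median -0.49, and 0.00 with the block). The 6 endothelial markers gave 0 calls, and their median of -0.22 became 0.40 with the block, -1.21 without day 8 replicate 1 and -1.02 without day 14 replicate 4.

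The 5 blood cell markers tested gave 1 call, Lyz2. Their median had no stable direction, at -1.0 here, 1.83 with no filter on low counts, 1.49 after thinning, and with the block 0.94 over the members tested in that fit and -0.53 over the 5. Summed, the blood markers measured 28.9, 43.8, 27.5 and 11.5 CPM in Fibroblast 1. SSC1-4 of the shared libraries measured 24.4, 5.66 and 17.5 CPM, so Fibroblast 1 was higher in 2 of 3. The leukocyte gene Ptprc was at 0 in 2 of the 4 sums and at most 0.202 CPM in the others, and the macrophage gene Adgre1 was at 0 in 2 of the 4 sums and at most 0.550 CPM in the others. The macrophage gene C1qb lay above all SSC1-4 sums, at 0.279, 0.550, 1.21 and 0.400 CPM against at most 0.237 CPM. C1qa was at 0.223 and 0.770 CPM at days 8 and 10 and at 0 at day 14. Both were too low to be tested, and all these levels were near the floor. The part of other cell types in the collagen result was not tested.

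Among sex-linked transcripts, the median was 0.01 with 0 calls of 5. The X-inactivation transcript Xist, which male cells silence, measured 2.96, 0.660, 0.151 and 0.400 CPM in Fibroblast 1 and 39.8 and 61.2 CPM in Fibroblast 2. It was thus highest in the day 8 library among the Fibroblast 1 sums. SSC1-4 sums had a median of 0.704 CPM and reached 8.77 CPM.

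Against single SSC clusters the count of called genes varied more than the marker folds did. Of 16893 genes tested in that fit, 160 (0.947%) were higher and 48 (0.284%) lower against SSC1, and 31 (0.184%) and 0 (0%) against SSC2, where 292 genes were lower at an unadjusted p under 0.05. Against SSC3 they were 27 (0.16%) and 4 (0.0237%), and against SSC4 212 (1.25%) and 69 (0.408%). Of the 48 genes lower against SSC1, 20 encode ribosomal proteins and 6 are mitochondrial transcripts, while the genes lower against SSC3 and SSC4 held 0 of either. The share of such genes among all genes tested was not counted, so these numbers are a description. The clusters entered with 28, 23, 18 and 16 libraries. No SSC4 sum came from a library with a Fibroblast 1 sum. Most SSC3 and SSC4 sums were of day 20 or later, under other date labels than Fibroblast 1. Cluster, day and date label are thus partly confounded in these contrasts, and depth also differed between sums. Their part in the counts was not tested.

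Col1a1 had log2 fold changes of 1.25, 1.36, 1.29 and 1.41 against SSC1 to SSC4, and Col5a2 2.99, 3.80, 4.89 and 3.25. Ctgf had 2.15, 2.55, 3.06 and 3.57, and Col12a1 2.39, 2.92, 2.65 and 4.07. The 6 genes called higher against all 4 clusters were Agtr2, Clca3a1, Col1a1, Col3a1, Col6a1 and Ifi202b. These contrasts share the Fibroblast 1 sums, and their calls are not independent of each other.

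The comparison with Fibroblast 2 set Fibroblast 1 beside the other cluster named fibroblast. Libraries of days 8 and 10 held both classes, with 20 and 8 Fibroblast 2 cells. Values are set side by side without a test. Fibroblast 2 held Col1a1 at 959 and 775 CPM, of which Fibroblast 1 reached 7.72% and 10.3%. For Col3a1 the shares were 4.80% and 5.16%, for Dcn 2.62% and 5.72%, and for Col5a2 3.80% and 3.61%.

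Col12a1 and Ctgf were nearer to the level of Fibroblast 2 at day 10. Fibroblast 1 reached 4.95% and 21.1% of it for Col12a1, and 6.87% and 17.5% for Ctgf. Fibroblast 2 held less of both genes at day 10 than at day 8, with 50.5 against 92.3 CPM for Col12a1 and 62.8 against 150 CPM for Ctgf. Germ cell genes ran the other way, and Fibroblast 2 held 27.6% and 11.96% of the Fibroblast 1 level of Dazl and 16.1% and 8.96% of that of Ddx4.

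Of the 42 called genes, 36 had more than 100 CPM in both Fibroblast 2 sums, and 41 lay lower in Fibroblast 1 than in Fibroblast 2 in both libraries. Of all genes tested, 12.1% and 23.5% met these conditions. A wider set was drawn after these values were seen, of 137 genes with at least 100 CPM in both Fibroblast 2 sums and under 5 CPM in the SSC1-4 median. Because the set was chosen for high Fibroblast 2 and low SSC1-4 levels, its shares are a description and small values are partly built in. In Fibroblast 1 these genes lay at a median of 2.61% of Fibroblast 2 at day 8, with the 10th and 90th percentiles at 1.27% and 4.99%. At day 10 the median was 3.05%, with those percentiles at 0.475% and 9.02%. SSC1-4 of day 10 lay at a median of 0.837%, and the SSC1-4 median of all libraries at 0.271% of the day 10 level.

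Summed over the 137 genes, Fibroblast 1 held 1394 CPM at day 8 and 1540 CPM at day 10, which was 3.25% and 4.13% of the Fibroblast 2 sums, and SSC1-4 of day 10 held 457 CPM (1.23%). Single genes ranged from 0.547% (Osr1) to 11.4% (Enho) at day 8 and from 0.0665% (Dnm3os) to 14.4% (Adh1) at day 10. The range between the 10th and 90th percentiles was thus wider at day 10 than at day 8. Whether the fibroblast transcripts came from the cells themselves, from RNA of feeder cells or from wells that held 2 cells was not tested.

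**Figure D3:**
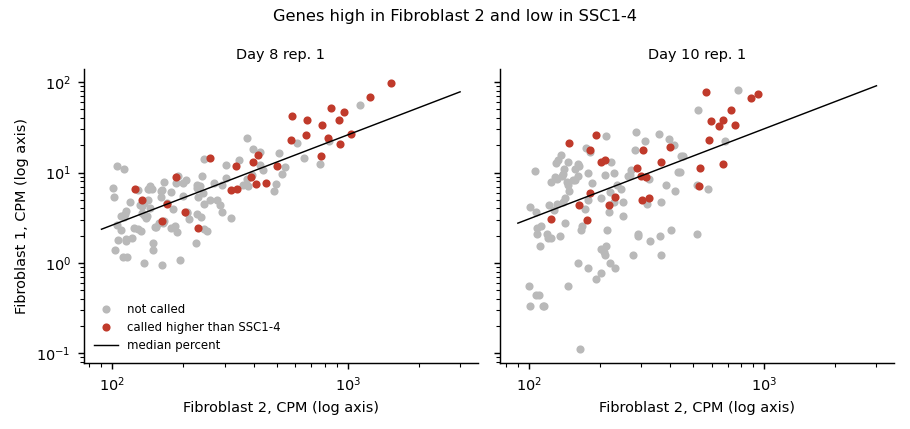
Levels in Fibroblast 1 against Fibroblast 2 for the 137 genes that were high in Fibroblast 2 and low in SSC1-4, at days 8 and 10 on log axes. Dark points are the 31 genes called higher in Fibroblast 1 than in SSC1-4, and the line marks the median share, 2.61% at day 8 and 3.05% at day 10. Points lie close to the line at day 8 and scatter more widely at day 10.

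Single cells showed the same mixture. All 182 Fibroblast 1 cells held UMIs of both Dazl and Ddx4, 180 held Col1a1, and 181 held Dazl together with Col1a1 or Col1a2. The lowest Dazl level of any Fibroblast 1 cell was 469 CPM. Only 51 of the 182 cells held a UMI of all 4 markers.

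Summed over the embryonic fibroblast list, Fibroblast 1 cells ran from 57.2 to 1230 CPM at day 8 (median 285), from 97.4 to 906 at day 10 (401), and from 111 to 1719 (284) and 26.7 to 1744 (359) at day 14. The 28 Fibroblast 2 cells of these days started at 4608 CPM at day 8 and 2515 at day 10, and no Fibroblast 1 cell reached 2515 CPM. Over all 39 Fibroblast 2 cells the lowest held 1108 CPM, and 6 of the 182 Fibroblast 1 cells reached that value, so the ranges of the 2 classes overlapped when the other libraries were included. The lowest germ cell list sum of a Fibroblast 1 cell was 2783 CPM, above every Fibroblast 2 cell of days 8 and 10, of which the highest held 1789 CPM. Elsewhere a Fibroblast 2 cell reached 4383 CPM.

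Fibroblast 1 and SSC1-4 cells overlapped within each shared library. Median sums of the fibroblast list in SSC1-4 cells were 160, 192 and 152 CPM in the shared libraries, against 57.6 to 88.6 CPM in the other libraries of day 14 and 73.6 CPM at day 0. In day 10 replicate 1, 35 of 50 SSC1-4 cells lay at or above the lowest Fibroblast 1 cell and 0 at or above its median. In day 14 replicate 2 these counts were 27 and 6 of 34, and in day 14 replicate 4 they were 65 and 6 of 66.

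**Figure D4:**
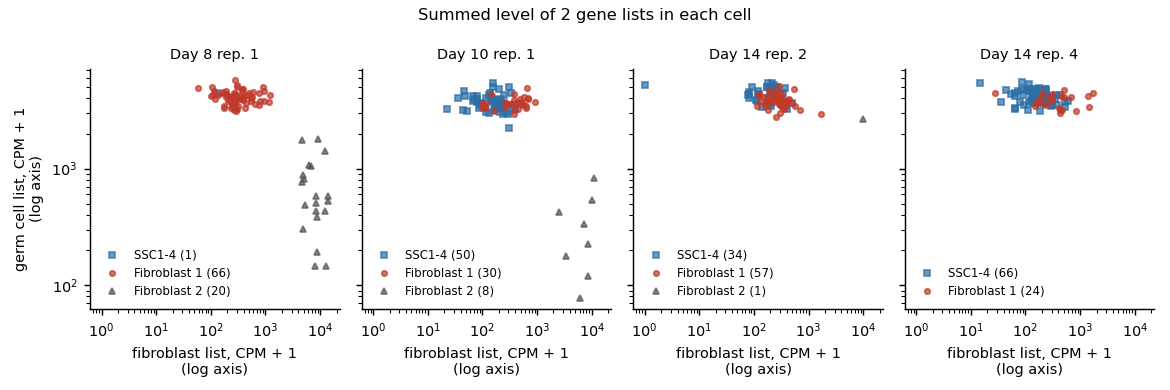
Each point is a cell, placed by its summed CPM of the embryonic fibroblast list (horizontal) and the germ cell identity list (vertical), both plus 1 on log axes, in 4 libraries. Fibroblast 1 cells overlap SSC1-4 cells on both axes. Fibroblast 2 cells of days 8 and 10, at 2515 CPM or more of the fibroblast list, form a separate group, and the 1 Fibroblast 2 cell of day 14 replicate 2 lies right of the Fibroblast 1 cells but near their germ cell list level.

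Shares of cells with a UMI were compared after each cell was thinned to 50000 UMIs, which left 172 Fibroblast 1 cells of the 4 libraries. Col1a1 was found in 85.9%, 89.3%, 92.9% and 87.5% of them in the order of the libraries above, against 75.5%, 72.2% and 81.0% of SSC1-4 cells in the 3 shared libraries. In 22 libraries of SSC1-4 without fibroblast cells the median share was 52.98% (range 40.0% to 70.1%). SSC1-4 cells thus held Col1a1 UMIs also in libraries with no cell named fibroblast.

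Col1a2 and Col3a1 followed another pattern. Col1a2 was found in 85.9%, 75%, 80.4% and 87.5% of Fibroblast 1 cells and in 51.0%, 77.8% and 55.6% of SSC1-4 cells of the shared libraries. In the 22 libraries without fibroblast cells the median share was 0.610% (0% to 20.0%). For Col3a1 the Fibroblast 1 shares were 78.1%, 53.6%, 73.2% and 54.2%, those of SSC1-4 in the shared libraries 28.6%, 55.6% and 28.6%, and the median elsewhere 0%. The 95% intervals of the 2 classes overlapped for both genes in all 3 shared libraries (18 SSC1-4 cells were left after thinning in day 14 replicate 2).

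The other markers were detected in a minority of cells at that depth. Col5a2 was found in 39.1%, 25%, 23.2% and 16.7% of Fibroblast 1 cells, against 4.08%, 5.56% and 12.7% of SSC1-4 cells in the shared libraries. Col12a1 was found in 10.9%, 32.1%, 25% and 29.2%, against 4.08%, 16.7% and 22.2%. Ctgf was found in 23.4%, 28.6%, 23.2% and 33.3%, against 6.12%, 16.7% and 12.7%. Without thinning the median over the 4 libraries rose to 63.1% for Col5a2, 55% for Col12a1 and 56.2% for Ctgf, so these shares follow depth. Intervals cover counting error only.

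**Figure D5:**
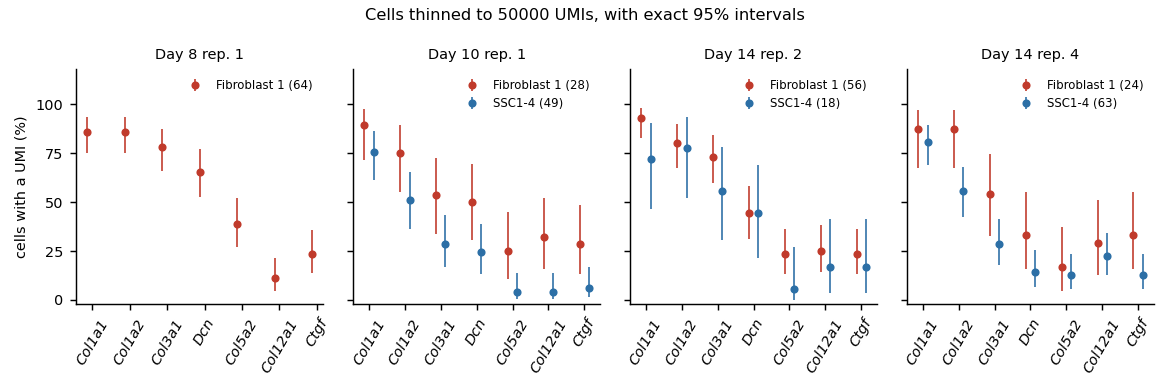
Share of cells with a UMI, in percent, for 7 matrix genes in the 4 libraries after thinning to 50000 UMIs. Circles are shares and bars exact binomial 95% intervals, with the number of cells in brackets. For Col1a2 the shares of Fibroblast 1 and SSC1-4 were 75% and 51.0% at day 10, 80.4% and 77.8% in day 14 replicate 2, and 87.5% and 55.6% in day 14 replicate 4, with overlapping intervals in each.

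The markers differed in how they were spread over the cells. In the 172 thinned cells, the 18 cells with most UMIs of a gene held 81.0% of its UMIs for Col12a1, 75.2% for Col5a2 and 68.6% for Ctgf. The same number held 31.5% for Col1a1, 42.3% for Col1a2 and 46.5% for Col3a1. Dazl and Ddx4, present in every cell, had 18.1% and 16.4%. Such shares also depend on the number of UMIs, which was 105 for Col12a1 and 7646 for Dazl after thinning.

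Lyz2 was as uneven as the rarest markers, with 87.7% of its thinned UMIs in 18 cells. Tyr, the tyrosinase gene, was called higher with a log2 fold change of 5.03, yet 1 cell of day 10 held 298 of its 334 UMIs (89.2%) in the class, so 1 cell carried most of that signal. Without the day 10 library its log2 fold change was -0.37. Tyr is named for this count, after its values were seen. The 2 genes called lower were Mfsd10 (-0.77) and Rdh12 (-6.31), which met no naming rule. Mfsd10 lost its call without any 1 of day 8 replicate 1, day 10 replicate 1 and day 14 replicate 4, and Rdh12 without any 1 of the first 3 libraries. Rdh12 was at 0 in 3 of the 4 Fibroblast 1 sums.

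Day 14 replicate 2 came in 2 deposited parts, with 21 and 36 Fibroblast 1 cells. Col1a1 measured 86.4 and 85.4 CPM in these, and the median fibroblast list sum per cell was 273 and 284 CPM. Col5a2 measured 8.27 and 5.72 CPM, Col12a1 5.97 and 12.6 CPM and Ctgf 3.22 and 8.43 CPM, so the rarer markers differed more between the parts than Col1a1 did. SSC1-4 had 24 and 10 cells in these parts, with medians of 17660 and 128470 UMIs, against 305330 and 371030 in Fibroblast 1. SSC1-4 held Col1a1 at 73.6 and 31.4 CPM and Col5a2 at 4.58 and 2.41 CPM. Col12a1 was at 5.41 and 6.03 CPM there and Ctgf at 0.832 and 10.9 CPM. Only Ctgf in the second part was higher in SSC1-4 than in Fibroblast 1. The 5 cells outside the sums carried the same mixture, with Dazl at 811 to 1004 CPM, Col1a1 at 25.6 to 125 CPM and the fibroblast list at 184 to 942 CPM.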

How the data were processed

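Single cells of the original culture condition were described by library and by the cluster name the authors deposited with each cell. The deposited table holds UMI counts per gene and cell, which the authors made with UMI-tools, STAR 2.7.2b and featureCounts 2.0.0 on the mouse genome and filtered for quality before deposit. A deposited cell table gives percent mitochondrial counts and the cluster, set by the authors with Seurat. Libraries of this condition numbered 46 (36 of batch B1, 10 of B2) and held 15975410 to 34609591 UMIs; 0 columns had no sample. The study describes 2 batches of reprogramming, and the labels name batches B1 and B2. Whether libraries of a batch came from separate cultures was not given in the sources used here, so the spread between them may be technical.

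UMIs were summed per library and class in sums of at least 5 cells. Sums were fitted with edgeR 4.0.16 (R 4.3.3; TMM, filterByExpr, quasi-likelihood test, no covariate) over 17534 of 24615 genes, with Benjamini-Hochberg adjustment. A second fit gave 1 contrast for each of SSC1 to SSC4. The script was tested on simulated data. Shares carry exact binomial 95% intervals (scipy 1.17.1), which cover counting error only, on cells thinned to 50000 UMIs. The SSC1-4 and Fibroblast 1 sums of 1 library come from the same library and so are paired. Deviations from class means correlated at 0.36, 0.26 and 0.15 within the 3 shared libraries over 9375 genes. Correlations between libraries were -0.01 or below, which is partly built in by centring on 3 libraries and is no separate sign of pairing.

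Alternatives were other size factors, no filter, DESeq2 1.42.0, the library as a block, other sets of SSC1-4 libraries, each Fibroblast 1 library left out, stricter thresholds and thinning. The SSC1-4 sum of day 14 replicate 2 was left out as an alternative chosen after seeing the data. Named genes were the 4 markers, up to 4 examples of a list (leading called members and the most abundant one) and the 10 leading called genes by fold change with at least 10 CPM in the higher class and the same direction in every shared library. Genes named otherwise are said to be so. The 27 genes whose fold change is discussed were refitted under the alternatives. The class, its markers, the lists and the comparisons were chosen with earlier results of these data known. Gene coordinates are of GRCm38. The study's other treatments and its methylation data were not analysed here.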

Additional observations from a re-analysis of the deposited data

Results flagged for a closer look

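Over 61 values of the 4 Fibroblast 1 libraries, 3 had 1 library far from the others, where chance alone gives about 1 in 20. Col6a1 measured 39.3 CPM in day 14 replicate 4, against 11.1 to 13.2 CPM in the other libraries. The summed level of the collagen processing genes was 679 CPM in day 10 replicate 1, against 765 to 767 CPM elsewhere. Epcam was found in 96.9% of the thinned cells of day 8 replicate 1 and in 100% of those of the other libraries, a difference of 2 cells.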

How the results depend on the processing

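The count of called genes changed with the SSC1-4 libraries used. The 42 higher and 2 lower genes became 246 and 12 with no filter on low counts, 22 and 42 with DESeq2 (18 genes shared), and 22 and 1 at an adjusted p below 0.01 with a natural-log fold change of 1. With the library as a replicate block over the 3 shared libraries they were 7 and 0 (edgeR; 277 and 147 at an unadjusted p under 0.05), of which Bgn, Dcn and Vim were shared with the 42, and without the block 0 and 0 (176 and 87). SSC1-4 of days 0 to 14 gave 0 and 0 (263 and 229), and SSC1-4 of the date label shared with Fibroblast 1 gave 5 and 0. Lower genes were 7 with at least 10 cells per sum, 11 with batch B1 and 9 after thinning. Leaving out each library in turn gave 19 to 57 higher and 0 to 3 lower genes, with 19 higher without day 8 and 19 without day 10. Leaving out the shallow SSC1-4 sum gave 51 and 3. Of the 27 genes whose fold change is given and that were refitted, all but Tyr kept their direction wherever they could be fitted, with 128 calls lost and 11 gained over genes and settings. Leaving out each library gave Tyr -0.37 (without day 10 replicate 1, reversed) to 5.61. Lyz2 lost its call in 10 of 16 alternatives, Bgn and Dcn in 9 and Col6a1 in 3. Shares without thinning were 55% (Col12a1), 63.1% (Col5a2), 56.2% (Ctgf) and 99.2% (Col1a1), and at a minimum of 2 UMIs 13.4%, 9.04%, 13.6% and 70.6%. The causes were not tested. Depth sets the share of cells in which a low gene is seen.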

Other observations

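Genes called with the library as a block but not in the comparison with all SSC1-4 libraries were Tmsb4x, Col1a2, Gpx3 and S100a11, named here for that reason. Tmsb4x, which encodes the actin-binding peptide thymosin beta 4, measured 182, 29.9 and 90.3 CPM in Fibroblast 1 of day 10 and day 14 replicates 2 and 4, against 19.5, 14.04 and 39.9 CPM in SSC1-4 of the same libraries (log2 fold change 1.78). Gpx3, a secreted glutathione peroxidase, measured 131, 63.9 and 92.3 CPM against 40.4, 38.4 and 47.6 CPM (1.06). S100a11, a calcium-binding protein, measured 149, 130.2 and 161 CPM against 81.5, 59.6 and 88.0 CPM (0.88). In all 3 genes Fibroblast 1 was higher in each of the 3 libraries.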
